A study of Homo sapiens with 4 samples.

Results

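The oligoadenylate synthetase genes OAS2, OAS3 and OASL were examined in RCC4 cells, an epithelial line from a human clear cell kidney cancer without functional VHL. The 3 genes are the members of the family found among the 1176 genes of the deposited tables, and they were chosen by their lower deposited values in shMIRE, so their differences between the groups are given as a description without a test. RNA was sequenced from cells infected with lentivirus carrying either a control hairpin (shControl, n = 2 libraries, genotype WT) or a hairpin directed at MIRE (shMIRE, n = 2 libraries, genotype MIRE knockdown), in both cases on day 3. All libraries thus share the cell line, the lentiviral infection, the presence of a hairpin and serum-containing medium, and uninfected cells were not analysed here. The label MIRE is a RefSeq synonym of the long non-coding RNA gene SAP30-DT. Its own level was not analysed here, and the depletion was therefore not checked. Whether replicate libraries stem from separate infections is not stated, so each p-value reflects library-to-library spread that may be technical only.

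Oligoadenylate synthetases are among the best known products of interferon-stimulated genes. OAS1, OAS2 and OAS3 bind double-stranded RNA and then join ATP into 2′,5′-linked oligoadenylates, which activate the latent ribonuclease RNase L. OASL carries a related fold followed by ubiquitin-like domains, does not make oligoadenylates in human cells, and is known to enhance signalling from the RNA sensor RIG-I. In epithelial cells the genes are usually held low and are switched on by interferon.

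All 3 genes lie on the long arm of chromosome 12 (GRCh38, GENCODE 29) and are annotated as protein-coding. OAS3 (ENSG00000111331) runs on the plus strand from 112938352 to 112973249. OAS2 (ENSG00000111335) follows on the same strand from 112978395 to 113011723, 5145 bases after the end of OAS3. The paralogue OAS1, which was not analysed here, ends 5129 bases before OAS3 begins. OASL (ENSG00000135114) stands apart from this cluster, on the minus strand from 121019111 to 121039242, 8.01 Mb beyond the end of OAS2. The transcripts with the longest coding sequence have 16 exons and 3261 coding bases in OAS3, 12 exons and 2178 coding bases in OAS2, and 6 exons and 1542 coding bases in OASL.

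**Figure D1:**
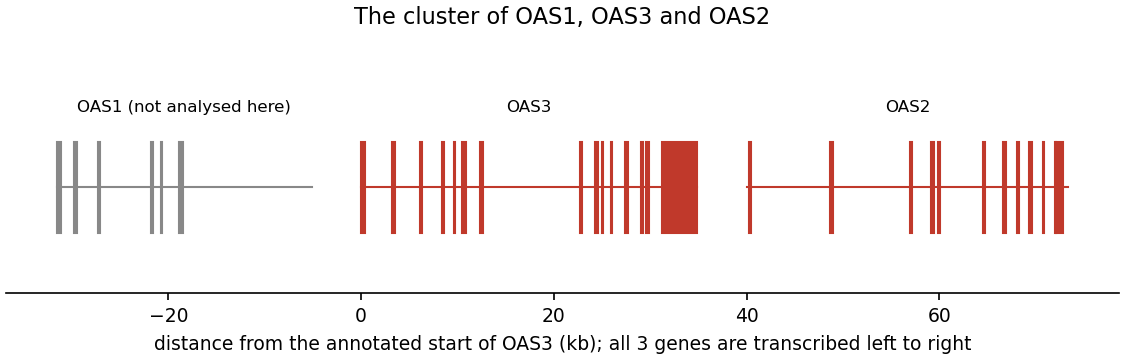
Exons (boxes) of the transcript with the longest coding sequence of OAS1, OAS3 and OAS2, by distance in kb from the annotated start of OAS3, with the gene span as a line. OAS3 and OAS2 (red) are in the tables and are separated by 5145 bases, and OAS1 (grey) was not analysed here.

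The promoter of OAS3 is shown because it holds the sequence through which interferon is known to act on this family. A RefSeq (GRCh38.p14) promoter window was available here for 1 of the 3 genes, OAS3. It covers 250 bases before to 50 after the RefSeq start, chr12:112938224-112938523 on the plus strand, and matches to the core of the interferon-stimulated response element, GAAANNGAAA, searched on both strands, are in capitals.
OAS3 promoter: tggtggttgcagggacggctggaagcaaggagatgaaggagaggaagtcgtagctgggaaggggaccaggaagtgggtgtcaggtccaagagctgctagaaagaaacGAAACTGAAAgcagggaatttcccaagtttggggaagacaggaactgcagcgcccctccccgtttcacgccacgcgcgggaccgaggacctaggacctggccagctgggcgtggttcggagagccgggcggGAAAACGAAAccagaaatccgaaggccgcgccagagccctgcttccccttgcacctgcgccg

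The window held 2 such matches, beginning 143 and 12 bases before the RefSeq start. That start lies 122 bases after the GENCODE start of the gene given above, so relative to the GENCODE start the first match begins 21 bases before it and the second 110 bases after it, inside the annotated gene. Of all 35116 promoter windows of this length, 1255 (3.57%) held at least 1 match and 91 (0.259%) held 2 or more. Among the windows of listed genes, 20 of 823 for genes with a lower mean in shMIRE (2.43%) and 18 of 515 for genes with a higher mean (3.50%) held the element, close to the share over all windows. Between the 2 matches lay the core of the NF-kB motif, GGGANNNTCC, on the plus strand 130 bases before the RefSeq start, with a second match on the minus strand that overlaps it. Across all windows, 5.07% held this motif. The core of the gamma-activated site, TTCNNNGAA, which was present in 7.66% of all windows, had no match in the window of OAS3. The motifs were chosen after the values were seen, and the matches are letters in a window that do not show that a factor binds there.

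OAS3 had by far the highest values of the 3 genes. Its deposited values were 8765 and 8686 in the shControl libraries and 2695 and 2526 in the shMIRE libraries. The lowest shControl value lay 5991 above the highest shMIRE value, while the shControl libraries differed from each other by 79. Every listed gene differs by about 2-fold or more between the groups, so a gap between them is not particular to OAS3. The mean was 8726 ± 55.9 in shControl and 2611 ± 120 in shMIRE (SD, n = 2), a 3.34-fold lower level, and the fold over the possible pairs of 1 shControl and 1 shMIRE library ran from 3.22 to 3.47. On the scale of log2(value + 1) the difference was -1.74, with a pooled SD between replicates of 0.0472.

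OAS2, whose product makes oligoadenylates as OAS3 does, was present at a level near the lower end of the tables. Its shControl libraries held 22 and 38, and its shMIRE libraries held 8 and 6. The gap from the lower shControl value to the higher shMIRE value, 14, was smaller than the difference of 16 between the shControl libraries. The mean was 30.0 ± 11.3 in shControl and 7.0 ± 1.41 in shMIRE (SD, n = 2), 4.29-fold lower, and the fold over pairs of libraries ran from 2.75 to 6.33. The whole range of OAS3 fits within that of OAS2, so the folds of these neighbouring genes are not distinguishable at the spread seen here. On the scale of log2(value + 1) the difference of OAS2 was -1.92, with a pooled SD of 0.422. With quantile normalisation it was -0.99.

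For OASL, the shControl libraries held values of 32 and 26, and each shMIRE library was listed at 0. The shControl libraries differed by 6, and the lower of them lay 26 above the shMIRE libraries. No fold is given against a group listed at 0. The mean in shControl was 29 ± 4.24 (SD, n = 2). Because the depth of the libraries is unknown, a value of 0 is not shown to be absence of the transcript. In RNA from whole cultures, fewer cells with a transcript and less transcript per cell cannot be told apart.

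**Figure D2:**
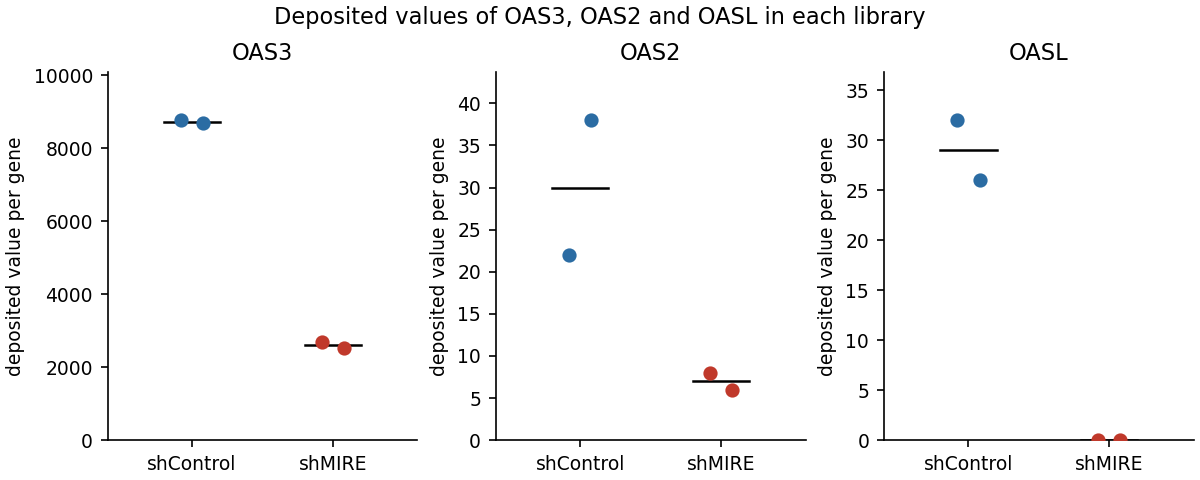
Deposited value of OAS3, OAS2 and OASL in each library (points) with the mean of each group (black lines), on axes that start at 0 and differ between genes. The shMIRE values lie below the shControl values for each gene, with 8765 and 8686 against 2695 and 2526 for OAS3, while OASL is at 0 in both shMIRE libraries.

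Levels between the genes were compared per kilobase of merged annotated exon, which amounts to 8251 bases for OAS3, 6264 for OAS2 and 3517 for OASL. In shControl the order was OAS3 (1058 ± 6.77 per kilobase), OASL (8.25 ± 1.21) and OAS2 (4.79 ± 1.81; SD, n = 2). OAS3 stood 221-fold above OAS2, with 302-fold and 174-fold in shControl replicates 1 and 2. OASL and OAS2 were neighbours in the order whose difference was close to their spread: OASL was higher in both libraries, at 9.10 against 3.51 per kilobase in replicate 1 and at 7.39 against 6.07 in replicate 2. In shMIRE the order was OAS3 (316 ± 14.5 per kilobase), OAS2 (1.12 ± 0.226) and OASL, which was listed at 0. OAS3 then stood 283-fold above OAS2, with 256-fold and 320-fold in shMIRE replicates 1 and 2. The 283-fold lay within the range seen between the shControl libraries, and shMIRE replicate 2 lay above that range. OAS3 made up 99.3% to 99.4% of the summed values of the 3 genes in shControl and 99.7% to 99.8% in shMIRE.

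The values of the 3 genes can be set against listed genes of like abundance, taken as those with a shControl mean between 0.5 and 2 times that of the member. Near OAS3 there were 125 such genes, of which 100 (80.0%) were lower in shMIRE, by a median of 2.74-fold. Near OAS2 there were 170, of which 103 (60.6%) were lower, and the 81 of these that stayed above 0 in shMIRE were lower by a median of 5.87-fold, more than OAS2 itself. Near OASL there were 166, of which 22 (13.3%) were at 0 in both shMIRE libraries as OASL was. Over all listed genes, 713 of 1176 (60.6%) had a lower mean in shMIRE. Of those, 84 were at 0 in both shMIRE libraries, and among the other 629 the median was 2.80-fold lower, with 203 genes further down than OAS3 and 127 further down than OAS2.

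The spread between replicates followed abundance. The higher of the shControl values of OAS3 was 1.01 times the lower, against a median of 1.09 among the 125 genes of like level, and 119 of these had a larger ratio. For OAS2 the ratio was 1.73 against a median of 1.40, and 57 of 169 genes had a larger one. For OASL it was 1.23 against 1.42. OAS3 is therefore the member whose difference is measured most precisely, and the others lie at low values with a wider relative spread.

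**Figure D3:**
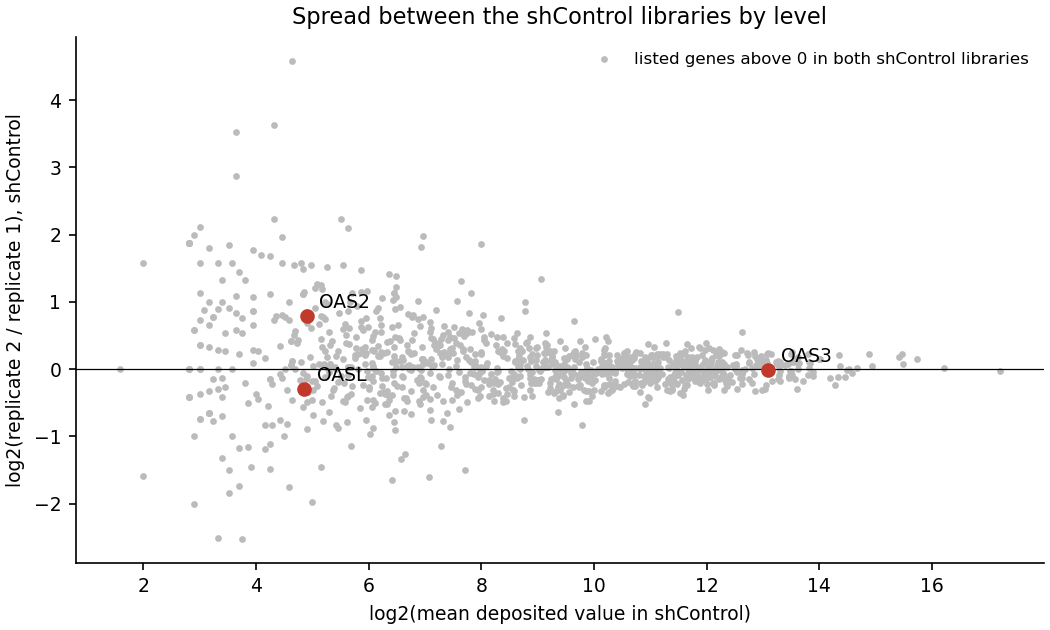
Log2 ratio of shControl replicate 2 to replicate 1 against the log2 of the mean shControl value, for listed genes above 0 in both libraries (grey) and OAS3, OAS2 and OASL (red). The ratios fan out at low values, where OAS2 (38 against 22) and OASL (26 against 32) lie, and OAS3 (8686 against 8765) sits on the line of no difference.

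Shared sequence between the members was checked in their annotated transcripts. Of the distinct stretches of 50 bases, OAS2 (6404) and OASL (3609) shared 0 with any other gene, and OAS3 shared 51 of 8287 (0.615%) with other genes and 0 with OAS2 or OASL. An antisense gene, AC004551.1, spans OAS3 and OAS2 on the minus strand. Its annotated exons overlapped 0 bases of the exons of either gene, and whether counting used strand is not given in the sources used here.

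Every gene in the tables shows a difference of about 2-fold or more between the groups, which bears on every count and every adjusted p-value here. With limma on log2(value + 1) and Benjamini-Hochberg adjustment over all 1176 genes, 59.0% of listed genes were called lower in shMIRE at an adjusted p under 0.05, 38.5% were called higher and 97.5% were called in either direction. A call at this threshold therefore does not set a gene apart from the other listed genes. All 3 oligoadenylate synthetase genes are on the lower side because they were chosen so, and nothing is read from their share. The sum over listed genes, which is not the depth, ran from 2002994 to 2514039 across the libraries.

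Around the 3 genes, 6 lists of pathway genes with 157 distinct members were examined. Outside OAS2, OAS3 and OASL, 7 of the remaining 154 genes were in the tables, of which 4 rose and 3 fell with limma. The pathway genes in the tables thus did not all move with the synthetases. Over all listed genes 38.5% were called higher and 59.0% lower, so nothing is read from this mix of directions. Of the 9 genes on the list for the oligoadenylate pathway, with CGAS of another pathway among them, the 3 synthetases were in the tables. Of 23 genes for sensing of double-stranded RNA and of 18 for RNA editing, processing and decay, 0 were listed, so their levels were not analysed here.

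Of 57 interferon-stimulated genes, 4 were listed, 3 of which fell and 1 rose. GBP1, an interferon-induced GTPase that acts against intracellular pathogens, had shControl values of 1169 and 1175 against 286 and 325 in shMIRE. It fell 3.84-fold (log2 difference -1.94, SE 0.122, limma adjusted p = 1.6e-04), with a gap between the groups far above the spread within them. EPSTI1, an interferon-induced gene of epithelial and stromal cells, fell 6.70-fold, from 57 and 77 to 12 and 8 (limma adjusted p = 0.00251). IFITM1, a membrane protein that hinders viral entry, fell 2.45-fold, from 227 and 248 to 88 and 106 (limma adjusted p = 0.00388). The call of IFITM1 was lost without shControl replicate 1 or 2 (limma adjusted p = 0.0632 and 0.0753, range over its alternatives 2.4e-04 to 0.0753). GBP5, a relative of GBP1, went the other way: both shControl libraries were listed at 0, against 29 and 5 in shMIRE. Its rise (limma adjusted p = 0.00961) was not called without shControl replicate 1 or 2 (0.141 and 0.143, range over its alternatives 1.1e-04 to 0.143).

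Of 32 genes of interferon signalling, 2 were listed and 2 rose. SOCS1, which encodes a feedback inhibitor of the Janus kinases below interferon receptors, had shControl values of 56 and 79 against 1016 and 827 in shMIRE. The groups lay far apart, and the mean rose 13.7-fold, from 67.5 ± 16.3 to 921.5 ± 134 (SD, n = 2; log2 difference 3.76, SE 0.246, limma adjusted p = 1.7e-04). Of the 431 listed genes higher in shMIRE that were above 0 in shControl, 7 had a larger fold. IFNGR2, a chain of the receptor for interferon gamma, rose 2.02-fold, from 5760 and 6056 to 12347 and 11492 (log2 difference 1.01, SE 0.0705, limma adjusted p = 2.0e-04). Of the same 431 genes, 419 had a larger fold than IFNGR2. The other genes of this list, the receptor chains for type I interferon among them, were not analysed here.

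Of 18 genes of antigen presentation, 1 was listed. ERAP2, an aminopeptidase that trims peptides for presentation, rose 2.49-fold, from 543 and 320 to 1004 and 1148 (limma adjusted p = 0.00637). The call was lost without shMIRE replicate 1 or 2 (0.102 and 0.123, range over its alternatives 2.3e-08 to 0.123).

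**Figure D4:**
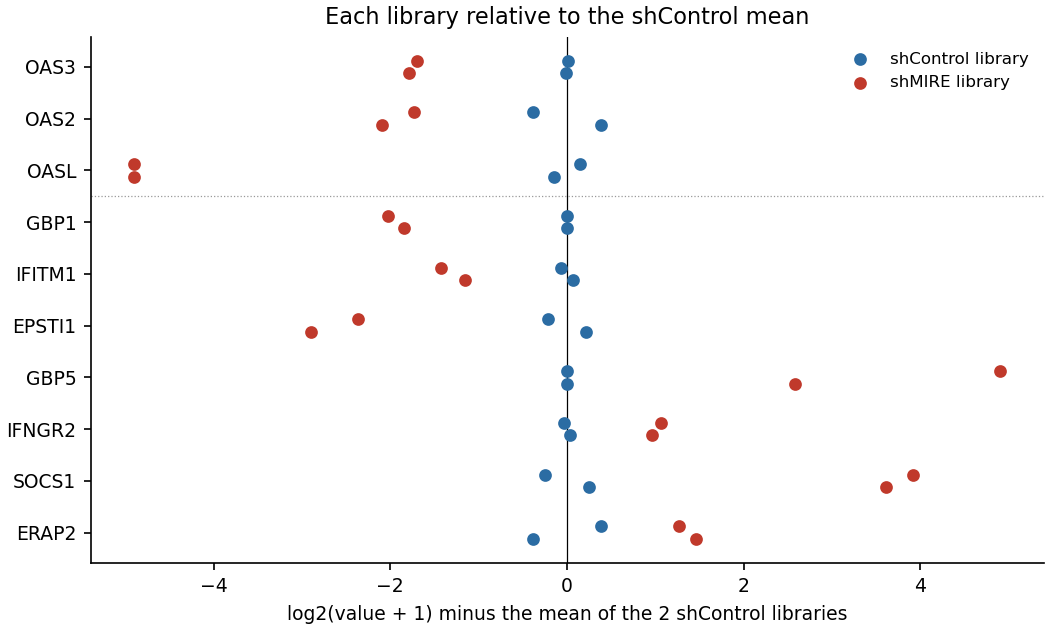
Log2(value + 1) of each library relative to the mean of the 2 shControl libraries (blue, shControl; red, shMIRE) for OAS3, OAS2 and OASL above the dotted line and the 7 other listed pathway genes below it. The shMIRE points of GBP1, IFITM1 and EPSTI1 lie to the left with those of the synthetases, and those of GBP5, IFNGR2, SOCS1 and ERAP2 lie to the right.

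**Figure D5:**
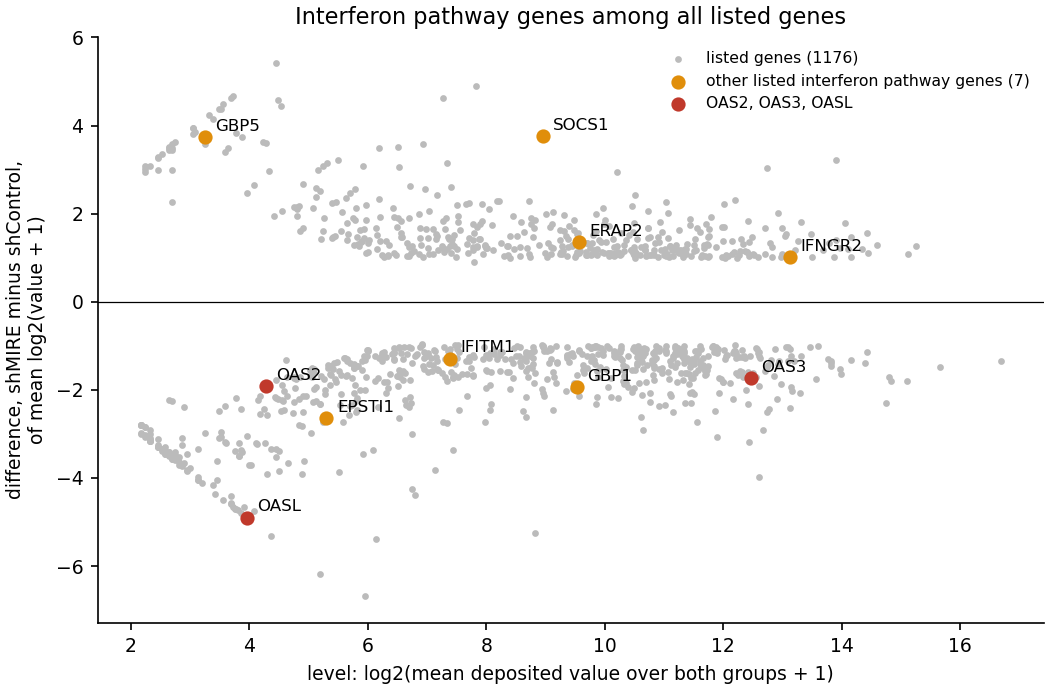
Difference between shMIRE and shControl in mean log2(value + 1) against level for all 1176 listed genes (grey), with OAS2, OAS3 and OASL in red and the 7 other listed pathway genes in orange. The empty band around 0 is the range of about 2-fold left out of the tables, and the diagonal edge at the lower left, where OASL lies, is made of genes at 0 in both shMIRE libraries.

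Listed genes near the synthetases on chromosome 12 were also lower. Within 1 Mb of OAS3 and of OAS2, 23 protein-coding genes are annotated in each case. Apart from the pair itself, 3 of them were listed: ERP29, a chaperone of the endoplasmic reticulum (7584 and 8289 in shControl, 2231 and 2639 in shMIRE), TRAFD1, an interferon-inducible brake on innate immune signalling (2144 and 2224, then 759 and 850), and RASAL1, which switches off RAS (334 and 373, then 127 and 181). They fell 3.26-fold, 2.71-fold and 2.30-fold (limma adjusted p = 1.6e-04, 1.8e-04 and 0.00607). Without shControl replicate 1 or 2, RASAL1 was not called (limma adjusted p = 0.0912 and 0.111, range over its alternatives 6.6e-05 to 0.111).

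Of 40 protein-coding genes within 1 Mb of OASL, 4 were listed. UNC119B, a carrier of lipid-modified proteins, fell 3.40-fold from 4021 and 3871 to 1152 and 1168, and ACADS, a mitochondrial acyl-CoA dehydrogenase, fell 3.58-fold from 2238 and 2532 to 734 and 600 (limma adjusted p = 1.1e-04 and 2.4e-04). CABP1, a calcium-binding protein, fell 2.93-fold from 172 and 258 to 89 and 58 (limma adjusted p = 0.0101), which was not called with any 1 library left out (0.0574 to 0.139; range over its alternatives 1.0e-04 to 0.139). SIRT4, a mitochondrial sirtuin, had shControl values of 7 and 19 and was listed at 0 in each shMIRE library (limma adjusted p = 0.00268). Its call was lost without shMIRE replicate 1 or 2 (0.0578 and 0.0565) and with quantile normalisation (0.148; range over its alternatives 3.1e-05 to 0.148). Of all 73 listed genes of chromosome 12, 39 (53.4%) were lower in shMIRE. These counts are a description, since the share of listed genes that were lower was 60.6% overall.

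For each member, the 3 listed genes with the most similar profile were found by the Euclidean distance between profiles of log2(value + 1), taken relative to the shControl mean, over the 4 libraries. For OAS3 they were KIAA0040 (distance 0.0415; 535 and 541 in shControl, 166 and 159 in shMIRE), the lysosomal protease gene CTSL (0.0774) and the cytoskeletal gene DPYSL3 (0.0903). For OAS2 they were the calcium-binding gene CIB2 (0.300), the hair keratin gene KRT33B (0.333) and the homeobox gene HOXA6 (0.386). For OASL they included MCAM, an adhesion molecule (0.137; 35 and 25 in shControl, 0 in shMIRE), and CA8, a relative of the carbonic anhydrases (0.521). The synthetases were not each other's closest genes: OAS3 ranked 55 among the genes most like OAS2, at a distance of 0.630, and OASL ranked 938 among those most like OAS3, at 4.47. With 4 libraries in 2 groups, these distances mostly compare the size of the difference and the replicate spread. Because OASL was at 0 in both shMIRE libraries, its distances and ranks also depend on the pseudocount.

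The 3′ untranslated region of OAS3 held a short sequence that those of OAS2 and OASL lacked. The heptamer GCTGTGT was known to be more frequent in listed genes lower in shMIRE, at 289 of 704 (41.1%) against 84 of 459 genes higher in it (18.3%), from a search of these same genes. OAS3 held it once, from base 3227 of its 3276-base 3′ untranslated region (GENCODE 29), in the window chr12:112973190-112973216 on the plus strand, with the heptamer in capitals.
OAS3 3′ untranslated region: ccaccaatctGCTGTGTatttcatcta

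The longest 3′ untranslated regions of OAS2 (2463 bases) and OASL (1450 bases) held 0 copies. Over the genes compared, the median length was 1286.5 bases for lower and 1653 bases for higher genes, and the lengths of OAS2 and OAS3 lie above both. The part of the heptamer in the lower level of OAS3 was not tested.

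Markers of cell type are covered only as far as the tables list them. Of 16 markers of kidney epithelium and clear cell carcinoma, LRP2 and MIOX were listed, with summed values of 581 and 790 in shControl and of 1562 and 1324 in shMIRE. LRP2 was at 0 in both shMIRE libraries. Of 11 leukocyte markers, ITGAM was listed (73 and 53, then 155 and 146), and of 10 endothelial and fibroblast markers, 3 were listed, with sums of 1277 and 1339 and then of 4414 and 4095. That sum is nearly all COL1A1 (1261 and 1290, then 4407 and 4095). The other 2 were lower in shMIRE, FLT1 at 3 and 11 and then at 0 in both libraries, and PDPN at 13 and 38 and then at 7 and 0. The defining markers PAX8, CA9, PTPRC and PECAM1 were not analysed here, so the labelled cell type could not be checked, and the part of these markers in the lower synthetase levels was not tested.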

How the data were processed

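RNA sequencing of 4 RCC4 libraries was analysed, 2 shControl and 2 shMIRE. Polyadenylated RNA was made into libraries with a TruSeq kit, per the labels' protocols. Build hg38, DESeq2 1.20.0, HISAT2 2.0.5 and featureCounts 1.5.0-p3 are named in the submitters' processing notes with no role or order. The deposited values were handled as a score: whole numbers per gene that look scaled between libraries by the authors and rounded, since replicate 2 stood at a median of 1.02 times replicate 1 for shControl and 1.01 times for shMIRE. Neither the scaling nor the rule for listing genes is stated in the labels. Of the 1176 genes, 2 differed by just under 2-fold, and the rest by more. Depth is unknown, so no counting interval or floor is given.

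Values were taken as log2(value + 1), genes with a mean above 1 were kept (all 1176), and limma 3.58.1 in R 4.3.3 was fitted with its intensity trend and no covariates, with Benjamini-Hochberg adjustment and calls at 0.05. The count test named as an option in the design was not used because the values look scaled and are not stated to be raw counts. The fit was tested on simulated data in which 200 of the 1176 genes were changed. It called 82% of genes changed 2-fold, 95% of those changed 4-fold and 0.205% of unchanged genes. In the deposited tables nearly every gene differs, so this simulation does not show how the fit performs on them.

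Symbols were found for 1175 of 1176 identifiers. Coordinates, exons and transcripts came from GENCODE 29 and promoter windows from RefSeq (GRCh38.p14). The members and lists were chosen with earlier results of these data known. Named are the members, every listed gene of the lists, the 3 genes most like each member (1 of those for OASL is not reported here), and listed genes within 1 Mb of a member. Alternatives were another pseudocount, other scalings and filters, no intensity trend, a stricter threshold, the replicate number as a block, another gene length, and each library left out.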

Additional observations from a re-analysis of the deposited data

How the results depend on the processing

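The direction of OAS2, OAS3 and OASL was the same under every alternative run. This does not set them apart, since they were chosen as lower and at most 3 of the 1176 listed genes changed direction under any alternative. Quantile normalisation moved their log2 differences to -0.99, -1.40 and -3.24, equal sums of the listed values moved that of OAS3 to -1.44, and a pseudocount of 0.1 moved that of OASL to -8.18, since a gene at 0 in shMIRE takes its size from the pseudocount. These scalings raised the median of all listed genes by 0.32 and 0.30. Relative to that median, OAS3 stood at -0.59 as deposited, -0.56 and -0.59, and OAS2 at -0.76, -0.15 and -0.78. With 1 library left out, the log2 difference ran from -1.79 to -1.69 for OAS3, from -2.30 to -1.53 for OAS2 and from -5.04 to -4.75 for OASL; in shControl, log2 of OAS3 over OAS2 per kilobase ran from 7.44 to 8.24, and that of OAS2 over OASL from -1.37 to -0.29.

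The number of listed genes called by limma, 1147, was 826 to 897 when each library was dropped in turn, a fit in which the single library is taken to have the spread of the other group, and 1175 with the replicate block. The replicate numbers were not taken as pairs: across genes, the deviations of libraries with the same number had a correlation of 0.0321. Among the 7 other pathway genes, 3 rose and 2 to 3 fell with 1 library left out, and 4 rose and 3 fell under every other alternative run. Depth limits could not be given without library totals.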

Other observations

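The 6 immune genes given a p-value here were picked after their values were seen and come from no fixed list, so their directions do not describe the immune genes of the tables. Cytokine genes among the rest went both ways. Values were higher in shMIRE for IL6 (1269 and 1461, then 3312 and 3389), CCL2 (720 and 712, then 3437 and 3467) and CSF2 (409 and 508, then 2536 and 2374). Also higher were CXCL1, CXCL2, CXCL3, CXCL6, CX3CL1, CSF1, IL16, IL18, IL36B, TNFSF4, TNFSF14 and TNFSF15. Values were lower for IL11 (721 and 838, then 246 and 159) and CXCL12 (29 and 28, then 9 and 0). The cytokine genes named here are thus mostly higher in shMIRE. TRIM6, a ubiquitin ligase that takes part in interferon signalling, fell 2.19-fold, from 4297 and 3932 in shControl to 1930 and 1833 in shMIRE (limma adjusted p = 2.2e-04); read-through transcripts join it to a neighbouring gene, so how its reads were divided is uncertain. TRIM68 fell 2.17-fold (limma adjusted p = 0.00290, or 0.0668 without shControl replicate 1; range over its alternatives 3.7e-06 to 0.0668). TRIM67 went the other way, from low values of 8 and 6 in shControl to 75 and 58 in shMIRE. IRF8, an interferon regulatory factor best known from myeloid cells, had shControl values of 6 and 12 and was listed at 0 in each shMIRE library (limma adjusted p = 0.00216, or 0.185 with quantile normalisation; range over its alternatives 3.1e-05 to 0.185). HLA-DMB, which helps load peptides on class II molecules, fell 2.69-fold, from 83 and 65 to 30 and 25 (limma adjusted p = 0.0122), and was not called with any 1 library left out (0.0516 to 0.0671) or with quantile normalisation (0.0567; range over its alternatives 0.00575 to 0.0671).

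The toll-like receptor genes in the tables were higher. TLR6 rose 2.48-fold, from 310 and 110 to 493 and 549 (limma adjusted p = 0.0350), and was not called without shMIRE replicate 1 or 2 (0.236 and 0.267) or without the intensity trend (0.0783; range over its alternatives 2.5e-06 to 0.267). TLR4, the receptor for lipopolysaccharide, rose 4.47-fold, from 6 and 9 to 45 and 22 (limma adjusted p = 0.0158), and was not called without shControl replicate 1 or 2 or shMIRE replicate 1 (0.135, 0.0955 and 0.0616; range over its alternatives 0.00203 to 0.135).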
